A study of Mus musculus with 9 samples.

Results

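The 6 libraries described here are NC replicates 1 to 3 and WT replicates 1 to 3 of a mouse bone marrow RNA-seq study, taken by the genotype in the labels from 9 libraries in 3 groups. The deposited table holds 99 genes, and the 61 with at least 1 FPKM (fragments mapped to a gene, scaled to transcript length and library depth) in 3 or more of these 6 libraries were tested. The study sorted c-Kit+ cells, the fraction of marrow that is rich in stem and progenitor cells, from control mice and from mice with chronic myelomonocytic leukaemia (CMML), with and without deletion of Piezo1, a mechanically gated cation channel. The labels give the genotypes of these libraries only as NC and WT; they do not spell out NC, and they give no allele, Cre driver, promoter, treatment, strain, age or number of animals. They also do not say that the libraries came from separate mice, so the spread between libraries may be technical. The p-values of the main test use that spread pooled over the 61 tested genes, and not the spread of each gene alone. Kit and Piezo1 are not analysed here. None of 10 stem and progenitor cell markers is among the 99 genes, so the sorted cell type could not be checked against its defining markers.

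CMML is a clonal disorder of blood stem cells in which monocytes accumulate. Myeloid cells leave the stem cell compartment through granulocyte and monocyte progenitors. Along that path they acquire β2 integrins for adhesion, lysosomal enzymes and inflammatory programmes. Resting stem cells rely largely on glycolysis, and cycling progenitors use mitochondrial respiration more. Interferon moves stem cells out of rest and induces antiviral genes such as Mx1. These points are background to the gene groups below and are not results of these libraries.

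The implied depth, as total estimated counts at about 4 counts a fragment, was 88187011, 79720189 and 88325754 in NC libraries, and 76613077, 84833054 and 80781262 in WT libraries. The 99 genes of the table took 0.504 to 0.528% of it. Pearson correlations of log2(FPKM + 1) across the 61 genes were 0.998 to 0.999 within groups and 0.979 to 0.988 between groups. These are correlations across genes, which are not independent replicates. The first principal component held 91.0% of the variance, with NC libraries at 1.34, 0.847 and 1.05 and WT libraries at -1.11, -1.12 and -1.01. Genes were not scaled to equal variance for this, so the few with the biggest differences weigh most in it. On the fragment scale NC replicates 2 and 3 did not differ beyond sampling noise (chi-square per degree of freedom 1.26, p = 0.0851, a test of 2 libraries over the 61 genes), whereas the other same-group pairs ranged from 1.62 to 2.89. On the deposited counts the same statistic was 5.03. It grows with the number of counts per fragment, so this value does not show that the pair differs. All 3 NC libraries were kept, and averaging the pair as 1 library gave 33 changed genes, 17 of them higher.

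Differences between NC and WT were common among the 61 tested genes and mostly small. By edgeR's quasi-likelihood test with Benjamini-Hochberg adjustment at 0.05, 36 of the 61 genes (59%) changed. Of these, 18 (29.5%) were higher and 18 (29.5%) lower in NC. The median log2 fold change was 0.30 among the higher genes and -0.16 among the lower genes, against 0.01 over all 61. Rises were the bigger of the changes: 4 genes rose by 1.5-fold or more, and none fell that far. A change of at least 20% was seen in 11 of the higher genes and 2 of the lower ones, and 12 of the 36 changed genes differed by less than 10%. The 3 NC libraries lay wholly above or below the 3 WT libraries for 35 genes (57.4%), 16 with NC higher and 19 with NC lower. Of the 36 changed genes, 30 had groups that did not overlap. The test pooled the spread of the 61 genes. A linear model on log2(FPKM + 1) called 33 genes with limma's moderated spread, and 25 (13 higher and 12 lower) with each gene's own spread. Because these are bulk samples of a sorted fraction, fewer cells of a type and less RNA per cell cannot be told apart.

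**Figure D1:**
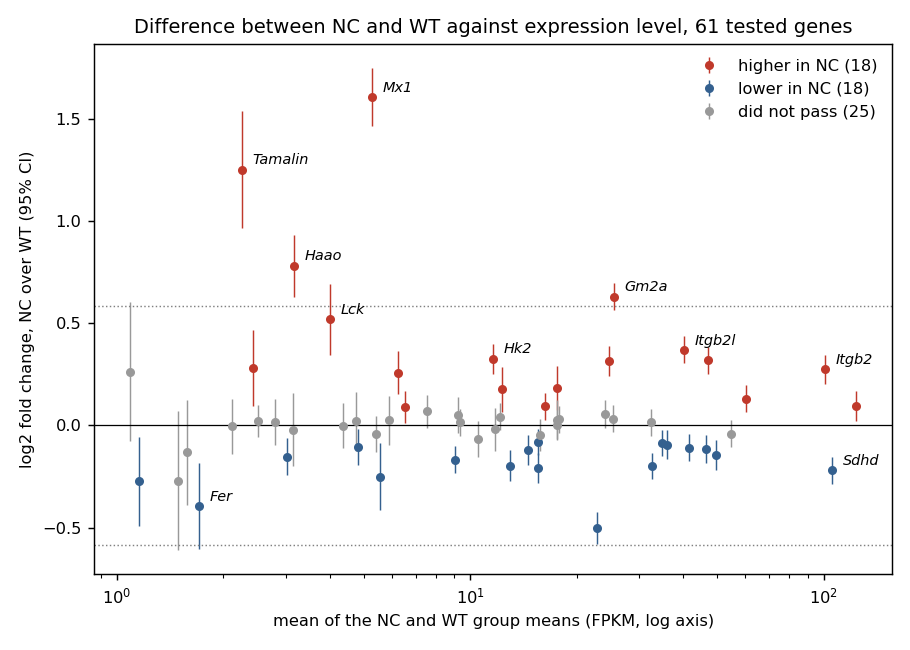
Log2 fold change of NC over WT (y axis, bars are 95% confidence intervals) against the mean of the group means in FPKM (x axis, log scale) for the 61 tested genes. The 4 genes above the upper dotted line (1.5-fold) are Mx1, Tamalin, Haao and Gm2a, and no gene lies below the lower dotted line.

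The 4 genes past 1.5-fold are Mx1 (chromosome 16, 97248235 to 97264107 in GRCm39, minus strand), Tamalin (chromosome 15, 101122069 to 101130637, plus strand), Haao and Gm2a. Promoter windows of 250 bases before to 50 bases after the gene start, from RefSeq on GRCm38.p6, are shown for the 3 of them that matched, because these are the promoters of the genes with the biggest rises. Capitals mark the letters TATAAA, the core of a TATA box, and CCGCCC, a GC box, each searched on both strands. A GC box on the opposite strand reads GGGCGG.
Tamalin (chr15:101223957-101224256, plus strand): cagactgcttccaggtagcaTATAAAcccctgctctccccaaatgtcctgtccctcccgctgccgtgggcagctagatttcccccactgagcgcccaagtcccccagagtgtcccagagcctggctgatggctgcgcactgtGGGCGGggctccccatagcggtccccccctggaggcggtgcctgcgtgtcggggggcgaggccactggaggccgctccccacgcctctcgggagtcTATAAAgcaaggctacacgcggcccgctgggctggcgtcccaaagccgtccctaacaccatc
Gm2a (chr11:55097735-55098034, plus strand): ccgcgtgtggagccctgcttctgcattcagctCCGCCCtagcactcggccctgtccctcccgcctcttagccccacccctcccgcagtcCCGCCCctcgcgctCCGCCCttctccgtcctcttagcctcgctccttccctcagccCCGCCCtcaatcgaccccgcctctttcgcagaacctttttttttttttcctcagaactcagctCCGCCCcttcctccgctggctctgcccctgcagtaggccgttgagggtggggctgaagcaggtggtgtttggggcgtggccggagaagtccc
Haao (chr17:83846741-83847040, minus strand): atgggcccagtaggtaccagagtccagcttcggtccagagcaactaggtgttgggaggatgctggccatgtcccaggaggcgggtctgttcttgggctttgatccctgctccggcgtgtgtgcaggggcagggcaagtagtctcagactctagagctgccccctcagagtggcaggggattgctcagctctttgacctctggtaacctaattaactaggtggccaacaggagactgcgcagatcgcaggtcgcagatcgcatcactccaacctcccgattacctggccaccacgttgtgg
The Gm2a window held 5 GC boxes, the Tamalin window 1 GC box and 2 TATA boxes, and the Haao window neither. A GC box was found in 35.7% and TATAAA in 13.6% of all 32851 promoter windows in the RefSeq table, and in 39 and 3 of the 50 windows of tested genes that matched. The GC content of the windows was 66.7% for Tamalin, 65.7% for Gm2a and 58.7% for Haao, against a median of 52.7% over all windows. A median over the windows of tested genes alone was not computed. The letters GAAANNGAAA of the interferon-stimulated response element occurred in none of these 3, in 3.44% of all windows and in 4 of the 50 windows of tested genes. These matches describe the letters in the windows only.

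Of 25 listed interferon-inducible genes, 3 were measured: 1 rose, 1 fell and 1 did not pass, which is near the 59% changed over all tested genes. Mx1, an interferon-induced antiviral GTPase, had 8.84, 7.05 and 7.91 FPKM in NC libraries, against 2.62, 2.61 and 2.58 FPKM in WT libraries. The groups were far apart, and NC replicate 1 was the highest. Its log2 fold change was 1.61 ± 0.07 (SE), a 3.04-fold rise, with an adjusted p of 2.46e-59 by edgeR, which pooled the spread over genes. A linear model on log2(FPKM + 1) with the gene's own spread gave an adjusted p of 0.00213. The coefficient of variation of Mx1 was 11.3% in NC and 0.818% in WT libraries. Reads of Mx1 and its paralog Mx2 may not be fully separable.

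Slfn4, a Schlafen family gene of myeloid cells, had 41.6, 38.3 and 40.2 FPKM in NC libraries, against 42.9, 43.7 and 42.9 FPKM in WT libraries. No overlap was seen, though NC replicate 1 lay close to the WT libraries. Slfn4 fell by 0.11 ± 0.03 (SE) on the log2 scale (edgeR adjusted p = 0.00305); the call was lost without NC replicate 2 (adjusted p = 0.0713) and with each gene's own spread. The Schlafen genes are close paralogs, so the split of reads among them is uncertain. Trim25, an E3 ligase of the RIG-I antiviral pathway, averaged 25.6 ± 0.342 FPKM in NC and 24.99 ± 0.791 FPKM in WT libraries (SD, n = 3 each), with a log2 fold change of 0.03 and a 95% interval of -0.03 to 0.10.

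Of 17 listed lysosomal genes, 3 were measured, and 2 of them rose and 1 fell, beside 29.5% higher and 29.5% lower over all tested genes; so few members say little of the list. Gm2a, the GM2 ganglioside activator that presents the lipid to hexosaminidase, had 31.5, 30.2 and 31.0 FPKM in NC libraries, against 19.4, 20.1 and 20.4 FPKM in WT libraries. The groups were widely separated and tight, with coefficients of variation of 2.16% in NC and 2.65% in WT libraries. The rise was 1.55-fold, a log2 fold change of 0.63 ± 0.03 (SE; edgeR adjusted p = 2.67e-47).
Scpep1, a lysosomal serine carboxypeptidase, had 13.1, 13.4 and 12.8 FPKM in NC libraries, against 11.9, 11.4 and 11.4 FPKM in WT libraries. Its groups did not overlap, and it rose by a log2 fold change of 0.18 ± 0.06 (SE; edgeR adjusted p = 0.00441). Tfe3, a transcription factor of lysosome genes, averaged 4.64 ± 0.211 FPKM in NC and 4.99 ± 0.153 FPKM in WT libraries (SD, n = 3 each). NC replicate 1 overlapped the WT libraries. Tfe3 fell by 0.11 on the log2 scale with an edgeR adjusted p of 0.0284, and the call was lost in 9 of the 18 alternatives run for it, among them without NC replicate 3 (adjusted p = 0.1997).

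Of 11 listed integrin genes, 3 were measured, and 2 rose and 1 fell, beside 29.5% higher and 29.5% lower over all tested genes. Itgb2l, a β2-like integrin chain found in mouse neutrophils, had 47.9, 43.4 and 44.5 FPKM in NC libraries, against 34.3, 35.5 and 35.5 FPKM in WT libraries. Every NC library lay above every WT library. The log2 fold change was 0.37 ± 0.03 (SE; edgeR adjusted p = 6.94e-22).
Itgb2, the β2 chain CD18 shared by the leukocyte integrins, had 113.9, 107.5 and 108.8 FPKM in NC libraries, against 89.0, 93.1 and 91.2 FPKM in WT libraries. It was among the most abundant genes of the table, and the groups did not overlap. The log2 fold change was 0.27 ± 0.04 (SE; edgeR adjusted p = 2.79e-12). Itga5, the α chain of the fibronectin receptor, had 13.6, 13.98 and 14.3 FPKM in NC libraries, against 15.6, 14.7 and 15.2 FPKM in WT libraries. All NC libraries lay below the WT libraries, and Itga5 fell by 0.12 ± 0.04 (SE) on the log2 scale (edgeR adjusted p = 0.00284).

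**Figure D2:**
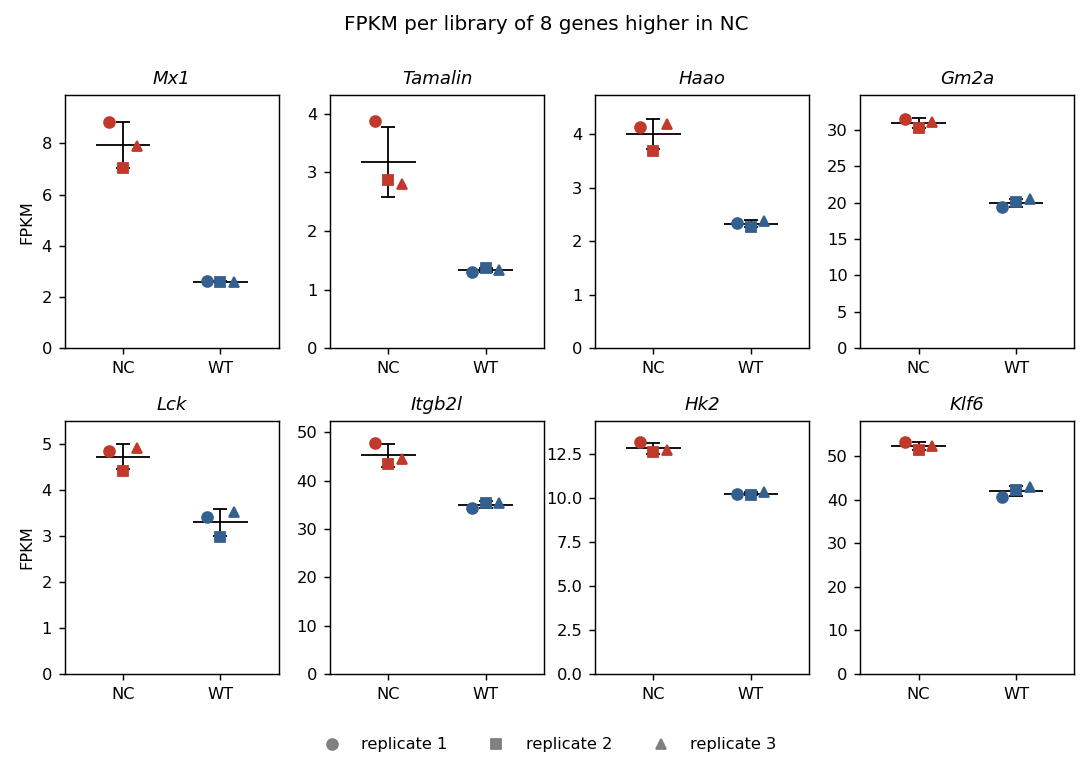
FPKM per library (y axis, starting at 0) of 8 genes that rose, in NC (red, left) and WT (blue, right) libraries; point shapes mark replicates, the horizontal line the mean and the bar the SD (n = 3). NC and WT libraries do not overlap in any panel, and the spread of NC libraries is widest for Tamalin (18.8% coefficient of variation) and Mx1 (11.3%).

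In energy metabolism, the hexokinase gene Hk2 rose, and 5 of the 6 tested genes on a mitochondrial list fell. Atp5pb, a tested mitochondrial gene outside that list, did not pass. Hk2, the hexokinase that commits glucose to metabolism and binds the outer mitochondrial membrane, had 13.2, 12.6 and 12.7 FPKM in NC libraries, against 10.2, 10.2 and 10.3 FPKM in WT libraries. Hk2 was higher in every NC library, with a log2 fold change of 0.33 ± 0.04 (SE; edgeR adjusted p = 3.97e-15). It is the single member of the 15-gene glycolysis list in the table, so nothing further can be said of glycolysis.
Of 22 listed genes of mitochondrial respiration and pyruvate and amino acid oxidation, 6 were tested. Of these 6, 5 fell and none rose, beside 29.5% lower and 29.5% higher over all tested genes. Their median log2 fold change was -0.16, against 0.01 over all 61 genes, and their summed FPKM was 225 to 230 in NC and 249 to 261 in WT libraries.

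Sdhd, a membrane anchor of succinate dehydrogenase (complex II), had 98.3, 98.4 and 96.1 FPKM in NC libraries, against 112.3, 117.4 and 111.5 FPKM in WT libraries. The groups were well apart. Sdhd fell by 0.22 ± 0.03 (SE) on the log2 scale, a change of -14.2% (edgeR adjusted p = 1.07e-09).
Dlat, the E2 subunit of pyruvate dehydrogenase, had 14.3, 14.8 and 14.1 FPKM in NC libraries, against 17.0, 16.4 and 16.5 FPKM in WT libraries. The groups did not overlap, and the log2 fold change was -0.21 ± 0.04 (SE; edgeR adjusted p = 1.17e-07). Tbrg4, which stabilises mitochondrial transcripts, had 31.4, 29.4 and 30.7 FPKM in NC libraries, against 34.1, 35.9 and 35.0 FPKM in WT libraries. It too fell without overlap, by 0.20 ± 0.03 (SE) on the log2 scale (edgeR adjusted p = 3.52e-08).

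The other mitochondrial genes gave smaller differences. Cox5a, a nuclear-encoded subunit of complex IV, had 46.4, 41.9 and 45.4 FPKM in NC libraries, against 50.5, 49.5 and 45.0 FPKM in WT libraries. WT replicate 3 lay among the NC libraries. Cox5a fell by 0.12 on the log2 scale (edgeR adjusted p = 0.00215), and the call was lost without NC replicate 2 (adjusted p = 0.0807), without WT replicate 1 (adjusted p = 0.0607) and with each gene's own spread.
Ndufa9, a subunit of complex I, had 34.3, 35.6 and 34.3 FPKM in NC libraries, against 37.9, 37.4 and 36.0 FPKM in WT libraries. Each NC library lay below each WT library. Ndufa9 fell by 0.10 on the log2 scale (edgeR adjusted p = 0.0183), and this call was lost in 6 of the 19 alternatives, among them without NC replicate 3 (adjusted p = 0.113) and with all 9 libraries in the fit (adjusted p = 0.0677). Dbt, the E2 subunit of branched-chain ketoacid dehydrogenase, averaged 4.78 ± 0.137 FPKM in NC and 4.70 ± 0.197 FPKM in WT libraries (SD, n = 3 each), with a 95% interval of the log2 fold change of -0.12 to 0.17. Atp5pb, a subunit of ATP synthase outside that list and named after its values were seen, averaged 54.0 ± 0.329 FPKM in NC and 55.5 ± 1.82 FPKM in WT libraries (SD, n = 3 each) and did not pass (edgeR adjusted p = 0.325).

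**Figure D3:**
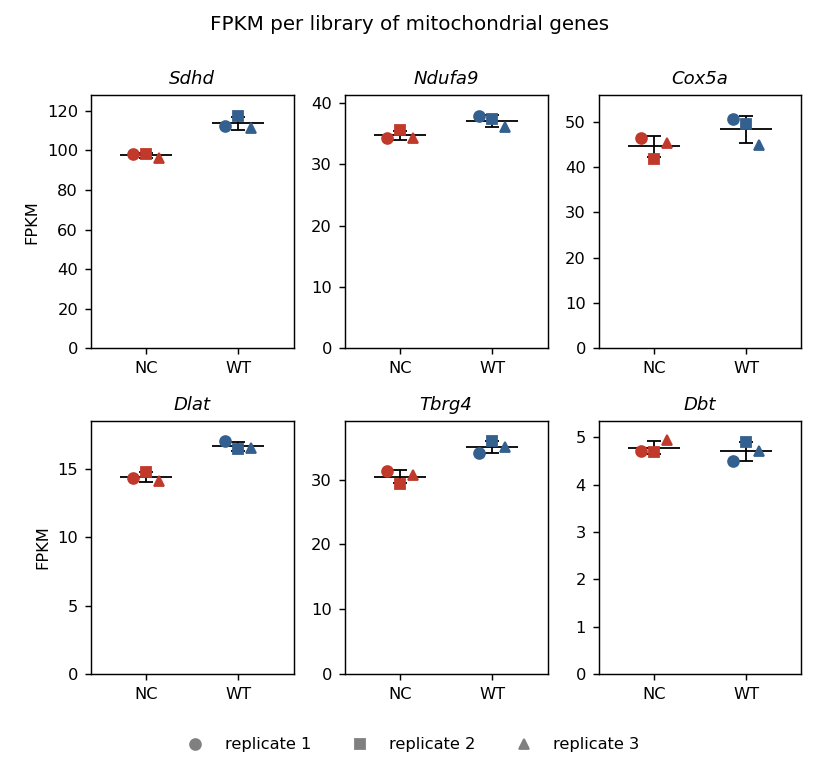
FPKM per library (y axis, starting at 0) of the 6 listed and tested genes of mitochondrial respiration and oxidation in NC (red, left) and WT (blue, right) libraries. Point shapes mark replicates, the horizontal line the mean and the bar the SD (n = 3). Sdhd, Ndufa9, Dlat and Tbrg4 are lower in every NC library, Cox5a overlaps through WT replicate 3, and Dbt overlaps throughout.

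Among the 61 tested genes, Tamalin and Haao had the biggest rises after Mx1, both at low levels. Tamalin, a scaffold protein that links receptors to cytohesins, had 3.87, 2.87 and 2.80 FPKM in NC libraries, against 1.30, 1.38 and 1.33 FPKM in WT libraries. All NC libraries were above all WT libraries, and NC replicate 1 stood above the other two. The rise was 2.38-fold, a log2 fold change of 1.25 ± 0.14 (SE; edgeR adjusted p = 6.43e-15), and leaving out single libraries gave log2 fold changes of 1.082 to 1.335.
Haao, which encodes 3-hydroxyanthranilate dioxygenase of the tryptophan to NAD pathway, had 4.12, 3.68 and 4.19 FPKM in NC libraries, against 2.34, 2.25 and 2.38 FPKM in WT libraries. The groups were far apart. The rise was 1.72-fold, a log2 fold change of 0.78 ± 0.08 (SE; edgeR adjusted p = 2.52e-19).
Gmpr, a GMP reductase of purine salvage, had 5.16, 4.89 and 5.15 FPKM in NC libraries, against 6.08, 6.42 and 5.59 FPKM in WT libraries. Values of the groups were separate, with WT replicate 3 nearest to NC. Gmpr fell by 0.25 ± 0.08 (SE) on the log2 scale (edgeR adjusted p = 0.00594), and the call was lost without WT replicate 2 (adjusted p = 0.0638).

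Pemt, which makes phosphatidylcholine from phosphatidylethanolamine, averaged 1.35 ± 0.137 FPKM in NC and 1.63 ± 0.0509 FPKM in WT libraries (SD, n = 3 each). Its groups did not overlap, yet its log2 fold change of -0.27 ± 0.17 (SE) did not pass (edgeR adjusted p = 0.187); limma on log2(FPKM + 1) did call it (adjusted p = 0.0426). Dgke, a diacylglycerol kinase, averaged 2.12 ± 0.0539 FPKM in NC and 2.13 ± 0.161 FPKM in WT libraries (SD, n = 3 each), with a 95% interval of the log2 fold change of -0.14 to 0.13.
Narf and Trappc10 were the other tested genes on Tamalin's list, which covers trafficking, scaffold and semaphorin genes. Narf, which binds prelamin A, had 12.2, 12.0 and 12.0 FPKM in NC libraries, against 14.1, 14.1 and 13.4 FPKM in WT libraries. It was lower in every NC library and fell by 0.20 ± 0.04 (SE) on the log2 scale (edgeR adjusted p = 2.38e-06). Trappc10, a subunit of the TRAPPII tethering complex, averaged 15.1 ± 0.313 FPKM in NC and 15.9 ± 0.133 FPKM in WT libraries (SD, n = 3 each). Its fall of 0.08 on the log2 scale (edgeR adjusted p = 0.0261) was lost in 7 of the 19 alternatives, among them the fit with no expression minimum (adjusted p = 0.0511) and without NC replicate 3 (adjusted p = 0.181).

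Acvr1b was the single tested member of the list of Wnt, cadherin and activin pathway genes. Acvr1b, the activin receptor ALK4, had 7.32, 6.53 and 6.51 FPKM in NC libraries, against 5.86, 5.60 and 5.58 FPKM in WT libraries. The groups did not overlap, and the log2 fold change was 0.26 ± 0.05 (SE; edgeR adjusted p = 1.31e-05).
Acvrl1, in no list and named for the size of its rise, encodes the BMP9 and BMP10 receptor ALK1. It had 2.63, 2.88 and 2.49 FPKM in NC libraries, against 2.07, 2.37 and 2.13 FPKM in WT libraries. The groups lay close but did not overlap. The log2 fold change was 0.28 ± 0.09 (SE; edgeR adjusted p = 0.00668), and the call was lost without NC replicate 2 (adjusted p = 0.0634), without WT replicate 3 (adjusted p = 0.0525) and with each gene's own spread.

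Of 15 listed transcription factor genes of the Myc network and immediate-early type, 2 were tested. Klf6 rose and Mnt did not pass, beside 59% changed over all tested genes. Klf6, a zinc finger factor of activated macrophages, had 53.2, 51.4 and 52.3 FPKM in NC libraries, against 40.7, 42.2 and 43.0 FPKM in WT libraries. The groups were well apart, and the log2 fold change was 0.32 ± 0.03 (SE; edgeR adjusted p = 6.25e-17). Mnt, a Max partner that antagonises Myc, averaged 9.40 ± 0.127 FPKM in NC and 9.09 ± 0.187 FPKM in WT libraries (SD, n = 3 each; edgeR adjusted p = 0.365), and its 95% interval of the log2 fold change was -0.04 to 0.14.
Of 13 listed genes for G-protein subunits and regulators, 3 were tested. Of these, 1 rose and 2 fell, beside 29.5% higher and 29.5% lower over all tested genes. Gpr107 is on this list but is not a G-protein subunit. Gnai3, an inhibitory α subunit, had 65.5, 61.6 and 62.3 FPKM in NC libraries, against 58.6, 57.0 and 57.5 FPKM in WT libraries. It was higher in every NC library, with a log2 fold change of 0.13 ± 0.03 (SE; edgeR adjusted p = 0.000526). Gna12, an α subunit that acts on RhoA, had 33.7, 33.9 and 33.5 FPKM in NC libraries, against 36.0, 35.3 and 36.1 FPKM in WT libraries. The groups did not overlap. Gna12 fell by 0.09 on the log2 scale (edgeR adjusted p = 0.0183), and the call was lost without NC replicate 3 (adjusted p = 0.106) and without WT replicate 1 (adjusted p = 0.0529).
Gpr107, a multi-pass membrane protein, averaged 2.87 ± 0.0774 FPKM in NC and 3.19 ± 0.0793 FPKM in WT libraries (SD, n = 3 each). It fell by 0.15 on the log2 scale (edgeR adjusted p = 0.00284) but did not pass in limma on log2(FPKM + 1) (adjusted p = 0.0548).

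Among 5 tested adhesion and cytoskeleton genes, 1 rose, 2 fell and 2 did not pass, a share close to the 59% changed over all tested genes. Septin1, a filament-forming GTPase of lymphoid and myeloid cells, had 28.1, 26.7 and 27.4 FPKM in NC libraries, against 22.2, 22.9 and 20.9 FPKM in WT libraries. The groups were well apart, and the log2 fold change was 0.31 ± 0.04 (SE; edgeR adjusted p = 2.34e-14).
Myo18a, an unconventional myosin, had 8.60, 8.40 and 8.56 FPKM in NC libraries, against 9.79, 9.64 and 9.31 FPKM in WT libraries. It was lower in every NC library and fell by 0.17 ± 0.03 (SE) on the log2 scale (edgeR adjusted p = 2.77e-06). Fer, a cytoplasmic tyrosine kinase of cell adhesion, had 1.62, 1.57 and 1.23 FPKM in NC libraries, against 1.61, 2.27 and 1.93 FPKM in WT libraries. WT replicate 1 overlapped the NC libraries. Fer fell by 0.40 ± 0.11 (SE) on the log2 scale (edgeR adjusted p = 0.000745); the call was lost without WT replicate 2, where the log2 fold change was -0.27 (adjusted p = 0.0672), without WT replicate 3 (adjusted p = 0.0525) and with each gene's own spread.
Cav2, a caveolin, averaged 1.502 ± 0.202 FPKM in NC and 1.64 ± 0.151 FPKM in WT libraries (SD, n = 3 each), with a 95% interval of the log2 fold change of -0.39 to 0.13. Krit1, a scaffold of endothelial junctions, averaged 2.52 ± 0.143 FPKM in NC and 2.49 ± 0.114 FPKM in WT libraries (SD, n = 3 each), with an interval of -0.06 to 0.10.

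Of 18 listed replication and cell-cycle genes, 3 were measured, and 1 rose and 2 did not pass, beside 59% changed over all tested genes. Mcts1, a translation re-initiation factor, had 19.4, 16.9 and 19.7 FPKM in NC libraries, against 17.2, 15.3 and 17.0 FPKM in WT libraries. NC replicate 2 overlapped the WT libraries. Mcts1 rose by a log2 fold change of 0.18 ± 0.05 (SE; edgeR adjusted p = 0.00267), and the call was lost without NC replicate 1 (adjusted p = 0.0813), without NC replicate 3 (adjusted p = 0.0671), without WT replicate 2 (adjusted p = 0.0594) and with each gene's own spread.
Cdc45, a component of the replicative helicase, averaged 24.5 ± 0.799 FPKM in NC and 23.6 ± 1.26 FPKM in WT libraries (SD, n = 3 each; edgeR adjusted p = 0.187). Ccnd2, cyclin D2, averaged 12.3 ± 0.208 FPKM in NC and 12.0 ± 0.448 FPKM in WT libraries (SD, n = 3 each; edgeR adjusted p = 0.305). Neither passed, with 95% intervals of the log2 fold change of -0.01 to 0.12 for Cdc45 and -0.02 to 0.11 for Ccnd2; Cdc45 passed without WT replicate 2 (adjusted p = 0.04997).

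Of 4 tested genes on the list of RNA processing and nuclear export, 1 rose, 1 fell and 2 did not pass, near the 59% changed over all tested genes. Hnrnpd, which binds AU-rich elements of short-lived transcripts, had 47.0, 47.2 and 47.1 FPKM in NC libraries, against 53.7, 53.2 and 49.2 FPKM in WT libraries. The NC libraries were nearly equal and all below the WT libraries. Hnrnpd fell by 0.14 ± 0.04 (SE) on the log2 scale (edgeR adjusted p = 0.000348), a call lost with each gene's own spread.
Dazap2, a small proline-rich protein, averaged 127.6 ± 2.72 FPKM in NC and 119.5 ± 3.69 FPKM in WT libraries (SD, n = 3 each). It rose by a log2 fold change of 0.10 (edgeR adjusted p = 0.0183). That call was lost without WT replicate 1 (adjusted p = 0.123), without NC replicate 1 (adjusted p = 0.0813), without NC replicate 3 (adjusted p = 0.0582), under the replicate block (adjusted p = 0.0549) and with each gene's own spread. Rtca and Xpo6, an RNA cyclase and the nuclear exporter of actin, had log2 fold changes of 0.03 and 0.02 and did not pass.
Of the Scm genes of the Polycomb system, Scml2 had 1.03, 1.104 and 0.996 FPKM in NC libraries, against 1.28, 1.29 and 1.20 FPKM in WT libraries. NC libraries were all lower than WT libraries. Scml2 fell by 0.27 ± 0.11 (SE) on the log2 scale (edgeR adjusted p = 0.0261), and the call was lost with limma (adjusted p = 0.0790), without NC replicate 3 (adjusted p = 0.106), without WT replicate 1 (adjusted p = 0.0622) and without WT replicate 2 (adjusted p = 0.0890). Scmh1 averaged 5.31 ± 0.193 FPKM in NC and 5.48 ± 0.309 FPKM in WT libraries (SD, n = 3 each) and did not pass (edgeR adjusted p = 0.418).

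**Figure D4:**
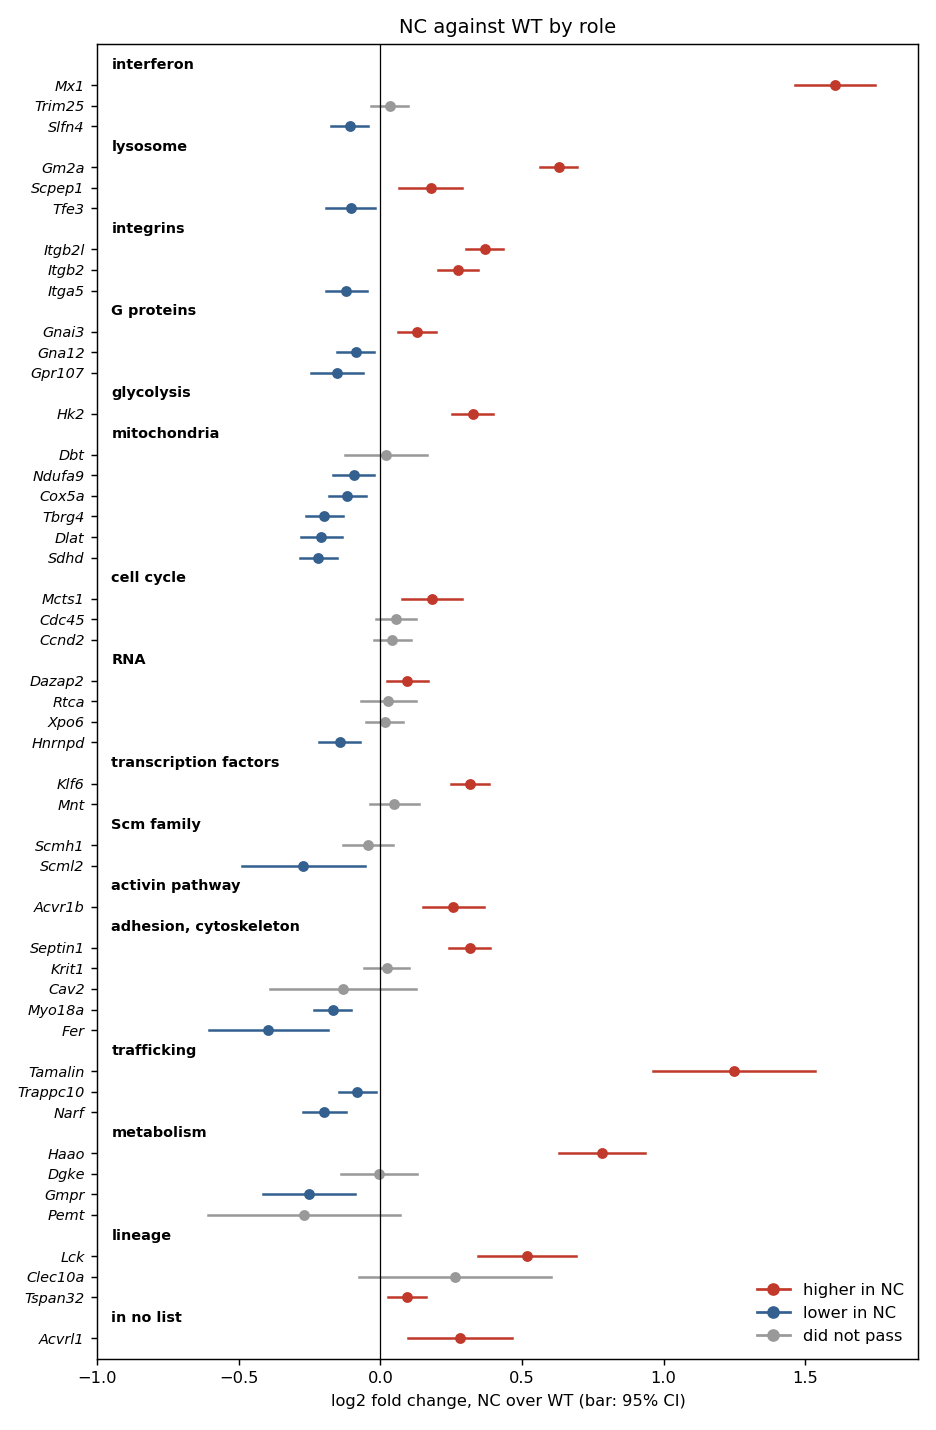
Log2 fold change of NC over WT (x axis) with 95% confidence intervals (bars) for tested genes grouped by role; red genes were higher and blue genes lower in NC, and grey genes did not pass. Rises reach 1.61 for Mx1 and 1.25 for Tamalin, and 5 of the 6 listed mitochondrial genes lie left of 0.

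Markers of single blood lineages were few in the table. Lck, the Src-family kinase of T cells, had 4.84, 4.41 and 4.91 FPKM in NC libraries, against 3.40, 2.96 and 3.52 FPKM in WT libraries. The groups did not overlap, and Lck rose by a log2 fold change of 0.52 ± 0.09 (SE; edgeR adjusted p = 5.06e-08). Clec2g, a C-type lectin on the same T and NK cell list, was at 6, 0 and 0 counts in NC libraries, and 14, 0 and 0 counts in WT libraries.
Clec10a, a lectin of macrophages and dendritic cells, had 1.15, 1.32 and 1.11 FPKM in NC libraries, against 1.22, 0.865 and 0.886 FPKM in WT libraries, and did not pass (edgeR adjusted p = 0.195). Tspan32, a tetraspanin of blood cells in the imprinted region of distal chromosome 7, averaged 16.8 ± 0.834 FPKM in NC and 15.7 ± 0.183 FPKM in WT libraries (SD, n = 3 each). NC replicate 2 overlapped the WT libraries. Tspan32 rose by a log2 fold change of 0.09 (edgeR adjusted p = 0.0130), and the call was lost in 7 of the 19 alternatives, among them median of ratios scaling (adjusted p = 0.0523) and without NC replicate 3 (adjusted p = 0.175). Alox12, the platelet 12-lipoxygenase, had 0.231, 0.253 and 0.256 FPKM in NC libraries, against 0.469, 0.394 and 0.467 FPKM in WT libraries, below the minimum for testing. The groups did not overlap. When no minimum was applied, Alox12 passed as lower, with a log2 fold change of -0.84 ± 0.23 (SE, edgeR adjusted p = 0.00133). The neutrophil list had Itgb2l alone. The stromal marker Ngfr was at 4, 0 and 0 counts in NC libraries, and 4, 8 and 0 counts in WT libraries. No marker of mast, erythroid or B cells was in the table. The part of cell mixture in the differences was not tested.

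A further 5 genes had groups that did not overlap and still did not pass: Mnt, Atp5pb, Ccm2, C1d and Pemt. Of the 25 genes that did not pass, 16 had a 95% interval that lay within 10% of no change. Larger differences in those 16 genes lie outside these intervals, which use the spread pooled over the 61 tested genes. The SE from each gene's own spread was larger than the pooled one for 26 of the 61 genes. Intervals from a gene's own spread were not computed and can be wider. Clcn4, a chloride and proton exchanger outside the lists and named after its values were seen, averaged 6.74 ± 0.329 FPKM in NC and 6.33 ± 0.214 FPKM in WT libraries (SD, n = 3 each) and rose by a log2 fold change of 0.09 with overlapping groups (edgeR adjusted p = 0.0437). The median coefficient of variation per gene was 3.07% in NC and 2.81% in WT libraries, and it was larger in NC for 29 of 61 genes. Among the 18 genes that rose, NC replicate 1 was the highest NC library in 11 and NC replicate 2 the lowest in 12. In the 18 genes that fell, NC replicate 1 was the highest NC library in 9 and NC replicate 2 the lowest in 6.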

How the data were processed

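Polyadenylated RNA from sorted marrow cells was sequenced, per the labels' protocols. The submitters' processing notes name cutadapt 1.9, HISAT2 2.2.1, StringTie 2.1.6, DESeq2 and edgeR, and build GRCm39; neither their roles nor the strand setting of counting could be read from the labels. As processed data the authors deposited estimated counts and FPKM per gene in 1 table of 99 genes. Low estimated counts as deposited gather at 4 (9 of 594 values equal 4 and none equals 1), so 1 fragment was taken as 4 counts. The table's sums are not the depth, so the depth was computed from the ratio of count to FPKM over 61 genes with at least 200 counts in all 9 libraries, which agreed within 1%, and its absolute scale from 6 single-transcript genes with GENCODE lengths. Genes with at least 1 FPKM in 3 or more of the 6 libraries were tested with edgeR 4.0.16 (R 4.3.3; quasi-likelihood, no covariate, the computed depth as library size) and adjusted by Benjamini-Hochberg over 61 genes at 0.05. edgeR pooled the spread over all genes, with 244 degrees of freedom for each. Intervals are 95%. The script was tested on simulated data. Alternatives used limma 3.58.1 with pseudocounts of 1 and 0.1, DESeq2 1.42.0, other scalings, minimums and library sets; each gene's own spread, by a linear model on log2(FPKM + 1) without moderation, was added after seeing the data. The members and lists were chosen with earlier results of these data known. Genes named were the 15 biggest rises and 15 biggest falls among those that passed without overlap, and every tested member of the lists; lineage markers were added from a second list, and the printed promoters were chosen after values were seen. The text leaves out 1 gene that this rule takes; the counts of tested and changed genes hold it. Atp5pb overlaps Wdr77 in GRCm39, so reads could be shared between them.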

Additional observations from a re-analysis of the deposited data

How the results depend on the processing

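Across 19 alternatives the number of changed genes ranged from 25 (each gene's own spread) to 42 (no expression minimum, 97 genes fitted), against 36. With all 9 libraries in the fit it was 31. Leaving out single libraries gave 27 to 32 changed genes, with 14 to 18 higher and 13 to 17 lower in NC. The number changed by 1.5-fold or more was 11 with no minimum and 2 with a minimum of 5 FPKM, because other genes enter or leave the table, and 4 in every other alternative. Of the 34 reported genes that passed by the named-gene rule, 19 passed in every alternative run for them and 15 lost the call in at least 1; 13 of the 46 reported genes, Tamalin, Haao and Lck among them, are under the 5 FPKM minimum and were run in 18. Pemt and Cdc45 passed only in an alternative. Signs turned in at least 1 alternative for 11 of the 61 tested genes, with none past the threshold where the sign turned. The 4 among the reported genes by that rule were Xpo6 (log2 fold change -0.000225 with median of ratios scaling, and -0.0137 to 0.0409 without single libraries), Krit1 (-0.0164 to 0.0644), Dbt (-0.00991 to 0.0504) and Dgke (-0.0630 to 0.0418). Correlations of same-numbered deviations were -0.16, 0.09 and 0.11, against -0.23 to 0.13 for unlike numbers. So few values do not settle whether replicate numbers pair the samples. With the replicate block 34 genes changed, 17 higher and 17 lower. Fragments per gene limit the low genes most, with SE of the log2 fold change from 0.03 to 0.17.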

Other observations

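Genes under 1 FPKM hold further differences, chosen here after their values were seen. Of the 38 genes below the minimum, 8 passed when no minimum was applied, 5 higher and 3 lower in NC. That fit called 42 of 97 genes in all. Of the 38 genes, 27 averaged under 0.2 FPKM in both groups and 2 were at 0 in all 6 libraries. Sema4f, a transmembrane semaphorin, had 1.01, 0.976 and 1.07 FPKM in NC libraries, against 0.448, 0.552 and 0.597 FPKM in WT libraries. These groups did not overlap, and the log2 fold change was 0.93 ± 0.14 (SE). Adora3, the A3 adenosine receptor, had 0.569, 0.400 and 0.351 FPKM in NC libraries, against 0.237, 0.161 and 0.149 FPKM in WT libraries, with a log2 fold change of 1.25 ± 0.26 (SE). Cdh1, E-cadherin, had 0.760, 0.732 and 0.522 FPKM in NC libraries, against 0.418, 0.538 and 0.468 FPKM in WT libraries, and its groups overlapped. The negative Wnt regulator and target Axin2 had 0.190, 0.183 and 0.168 FPKM in NC libraries, against 0.214, 0.339 and 0.415 FPKM in WT libraries, with no overlap. Log2 fold changes were 0.50 ± 0.17 (SE) for Cdh1 and -0.84 ± 0.23 (SE) for Axin2.

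Some changed genes lie side by side in GRCm39. Of 34 pairs of table genes within 200 kb, 14 had both genes tested and 4 had both changed, in each case in the same direction. Of these 4 pairs, 3 come from the same 3 genes. Over all tested genes 59% changed, which is a share of genes and not of pairs. Whether neighbours changed together more often than other genes was not tested. On chromosome 15, Acvrl1 (101026403 to 101043217), Acvr1b (101071948 to 101111565) and Tamalin (101122069 to 101130637) are all on the plus strand and all rose, with log2 fold changes of 0.28, 0.26 and 1.25. On chromosome 9, Sdhd (50507657 to 50515112) and Dlat (50545933 to 50571080) fell by 0.22 and 0.21 on the log2 scale. Pih1d2, which lies between them, had 0.166, 0.309 and 0.324 FPKM in NC libraries, against 0.370, 0.394 and 0.540 FPKM in WT libraries, a log2 fold change of -0.69 ± 0.28 (SE) with no overlap.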
